A study of Homo sapiens with 12 samples.

Results

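SCC-15 is an established line of human tongue squamous carcinoma cells. Its RNA was compared between cells with the second of 3 short hairpin RNAs against FMOD (shRNA2) and cells with a negative control hairpin (NC). The comparison takes the 3 libraries titled shRNA2 and the 3 titled NC, which are 6 of the 12 libraries in the series, and the replicate numbers are those of the titles. The other 6 libraries carry the hairpins shRNA1 and shRNA3 against the same gene, 3 each, and serve here to show where shRNA2 gave a larger or a smaller difference. All 4 groups are labelled as SCC-15 with 1 hairpin each, with no other gene change or drug named, and all were harvested 48 hours into the experiment. The sources used here give neither the hairpin sequences nor whether the 3 libraries of a group came from separate cultures. The p-values thus measure a spread between libraries that may be technical. Except for FMOD, that spread was estimated over all 12 libraries, shRNA3 included, unless libraries were left out. It is therefore not the spread of the shRNA2 and NC libraries alone.

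FMOD encodes fibromodulin, a small leucine-rich proteoglycan that binds collagen fibrils and is secreted mainly by connective tissue cells. The study's title places FMOD upstream of EGFR, the epidermal growth factor receptor, which drives the RAS and ERK kinase cascade and is abundant in squamous carcinomas. A short hairpin RNA is processed into a small interfering RNA, and different hairpins against 1 gene share the intended target but not the other transcripts that their seeds can match.

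Library totals lay between 17286934 and 19567192 counts over the 12 libraries, and between 17349957 and 17825043 with shRNA2. Pearson's r of log2 CPM (counts scaled to a common library total) over the 17532 genes tested was 0.988 to 0.989 among the shRNA2 libraries and 0.788 to 0.795 between shRNA2 and NC libraries. With shRNA2, the shRNA1 libraries correlated at 0.961 to 0.972 and shRNA3 library 3 at 0.981, whereas shRNA3 libraries 1 and 2 stood apart at 0.916 to 0.921. Tested differences from shRNA3 are therefore also given against its library 3 alone, a lone library that is assumed to vary like the others, while list medians with shRNA3 hold all 3 of its libraries. Of 12 squamous keratinocyte markers, 12 reached 1 CPM in NC and 11 with shRNA2, and their summed level was 3765 to 4079 CPM in NC and 5623 to 6010 CPM with shRNA2. The list also holds KRT8, KRT18 and EPCAM, and its members moved both ways. EPCAM rose with shRNA2, whereas KRT5, PKP1, TP63 and CDH1 fell, so the sum does not describe each marker. Of 8 fibroblast markers, 4 reached 1 CPM in NC (summed level 56.9 to 59.7 CPM, with DCN and THY1 at 0) and 2 with shRNA2 (44.3 to 48.2 CPM, with DCN, COL1A2 and COL3A1 at 0). Of 6 leukocyte markers, 2 reached 1 CPM in either group, and PTPRC was at 0 in NC. In bulk RNA, fewer cells of a type and less RNA per cell cannot be told apart.

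The target itself was close to undetected. FMOD (ENSG00000122176, chr1:203340628-203351758, minus strand, GRCh38) had 2, 2 and 3 counts in the NC libraries and 0 counts in each shRNA2 library. The exact 95% upper limit for a count of 0 was 0.207 to 0.213 CPM in those libraries. The NC libraries held 0.11, 0.109 and 0.168 CPM, so no fold change can be given at this depth. The difference in log2(CPM + 1) was -0.16, with an exact two-sided permutation p = 0.1, the smallest that 3 against 3 libraries allow. All shRNA1 and shRNA3 libraries also had 0 counts.

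EGFR (ENSG00000146648, chr7:55019021-55211628, plus strand) fell with shRNA2. The level was 1372, 1271 and 1283 CPM in NC and 225, 250 and 237 CPM with shRNA2, which is 5.51-fold lower (log2 fold change -2.46 ± 0.26 SE, adjusted p = 1.69e-05, edgeR's quasi-likelihood test, n = 3 per group). The lowest NC library was above every hairpin library. The other hairpins gave 315, 284 and 338 CPM (shRNA1) and 134, 109 and 253 CPM (shRNA3), and shRNA2 differed from neither past the threshold (log2 fold change -0.40, adjusted p = 0.333, and 0.52, adjusted p = 0.179, or -0.11, adjusted p = 0.696, against shRNA3 library 3 alone). Reads of EGFR and of its antisense gene EGFR-AS1 cannot be told apart here, because the library kit does not mark strand.

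Against NC, 9290 of the 17532 tested genes (53%) passed an adjusted p of 0.05, and such genes are called higher or lower below. Higher with shRNA2 were 4312 genes (24.6%) and lower were 4978 (28.4%), and 6730 of the calls were at least 2-fold. Across the tested genes the log2 fold change had a median of -0.05 and a median size of 0.85, so a typical gene moved by more than its median SE of 0.32. Among the called genes, 393 (2.24% of those tested) had at most 3 counts in every NC library, and 939 (5.36%) had at most 3 in every shRNA2 library. All 3 comparisons with NC share the same NC libraries, and shRNA1 and shRNA3 gave 10056 and 9457 called genes. Whether the NC and hairpin libraries came from the same stock of cells is not given in the sources used here and was not tested, so in every comparison with NC a difference between cultures and one between hairpins cannot be told apart.

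Among genes with a mean of at least 1 CPM in NC, the largest rises included those of H19, an imprinted long non-coding RNA, of 2 keratins and of vimentin. H19 (chr11:1995176-2001470) was at 3.33, 4.88 and 4.82 CPM in NC and at 9695, 8857 and 9558 CPM with shRNA2, a 2154-fold rise (log2 fold change 11.07 ± 0.42, adjusted p = 2.42e-08). KRT81, a hair keratin, rose from 4.16 to 6.06 CPM in NC to 1289 to 1425 CPM, 274-fold. VIM, the intermediate filament protein of mesenchymal cells, rose from 3.04 to 3.43 CPM to 601 to 618 CPM, 186-fold. KRT7, a simple epithelial keratin, rose 163-fold, AQP3, an aquaglyceroporin of epithelia, 101-fold, MSLN, the surface glycoprotein mesothelin, 65.8-fold, and PTGES, which makes prostaglandin E2, 61.2-fold. S100P, a calcium-binding protein, PEG10, an imprinted retrotransposon-derived gene, and MAGEA1, a cancer-testis antigen, had at most 3 counts in every NC library, and reached 96.1 to 104, 60 to 67.1 and 48.9 to 52.2 CPM with shRNA2. These are rises of at least 659-fold, 420-fold and 333-fold. For the genes with at least 1 CPM in NC, no overlap of NC and shRNA2 libraries was a condition of being named. With at least 10 CPM in the higher group, 3109 genes called higher (17.7% of those tested) met that rule. S100P, PEG10 and MAGEA1 did not overlap either.

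Among genes that kept a mean of at least 1 CPM with shRNA2, the largest falls included those of ICAM1 and NOTCH3. ICAM1, the adhesion molecule bound by leukocyte integrins, was at 513, 586 and 607 CPM in NC and at 2.17, 2.88 and 2.71 CPM with shRNA2, 219-fold lower (log2 fold change -7.78 ± 0.30, adjusted p = 2.42e-08). NOTCH3, a Notch receptor, fell 196-fold, from 247 to 301 CPM to 1.18 to 1.5 CPM. PTK7, a receptor pseudokinase of WNT signalling, fell 163-fold, S100A9, a subunit of calprotectin, 145-fold, PLAU, the urokinase plasminogen activator, 94.5-fold, and KLK5, an epidermal serine protease, 75.1-fold. CLDN1, a claudin of epidermal tight junctions, and MAGEA4, a cancer-testis antigen, had 0 counts in every shRNA2 library, after 497 to 521 and 224 to 249 CPM in NC. They were at least 2901-fold and 1342-fold lower, and the metallothionein MT1E at least 4344-fold lower. For the genes that kept at least 1 CPM with shRNA2, no overlap of the 2 groups was again a condition of being named. With at least 10 CPM in NC, 2587 genes called lower (14.8% of those tested) met it. CLDN1, MAGEA4 and MT1E did not overlap either.

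**Figure D1:**
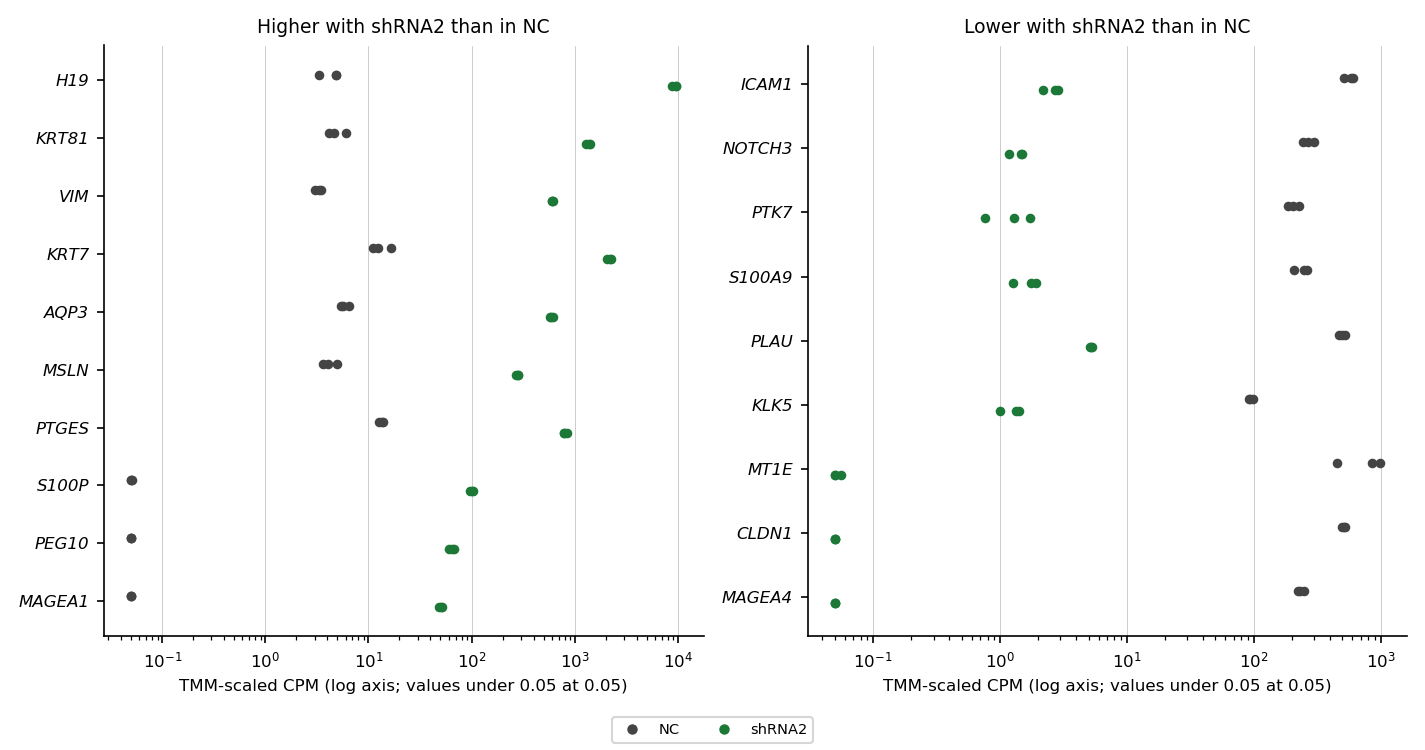
CPM on a log axis of genes with large rises (left of the divide) and falls (right) in the 3 NC and the 3 shRNA2 libraries, 1 point per library, with values under 0.05 CPM drawn at 0.05. The groups do not overlap in any gene shown, which the rule that named most of them required. H19 stands at 8857 to 9695 CPM with shRNA2, and CLDN1 and MAGEA4 at 0.

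Calls were counted in 50 lists of genes with known roles (1082 of their members were tested), and the share called in each can be read against the 24.6% higher and 28.4% lower of all tested genes. Antigen presentation, NF-kappaB feedback, YAP and TEAD targets, secreted defence proteins and endoplasmic reticulum chaperones were mostly called lower. DNA replication, mitosis, differentiation keratins, S100 proteins and mucins were mostly called higher.

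**Figure D2:**
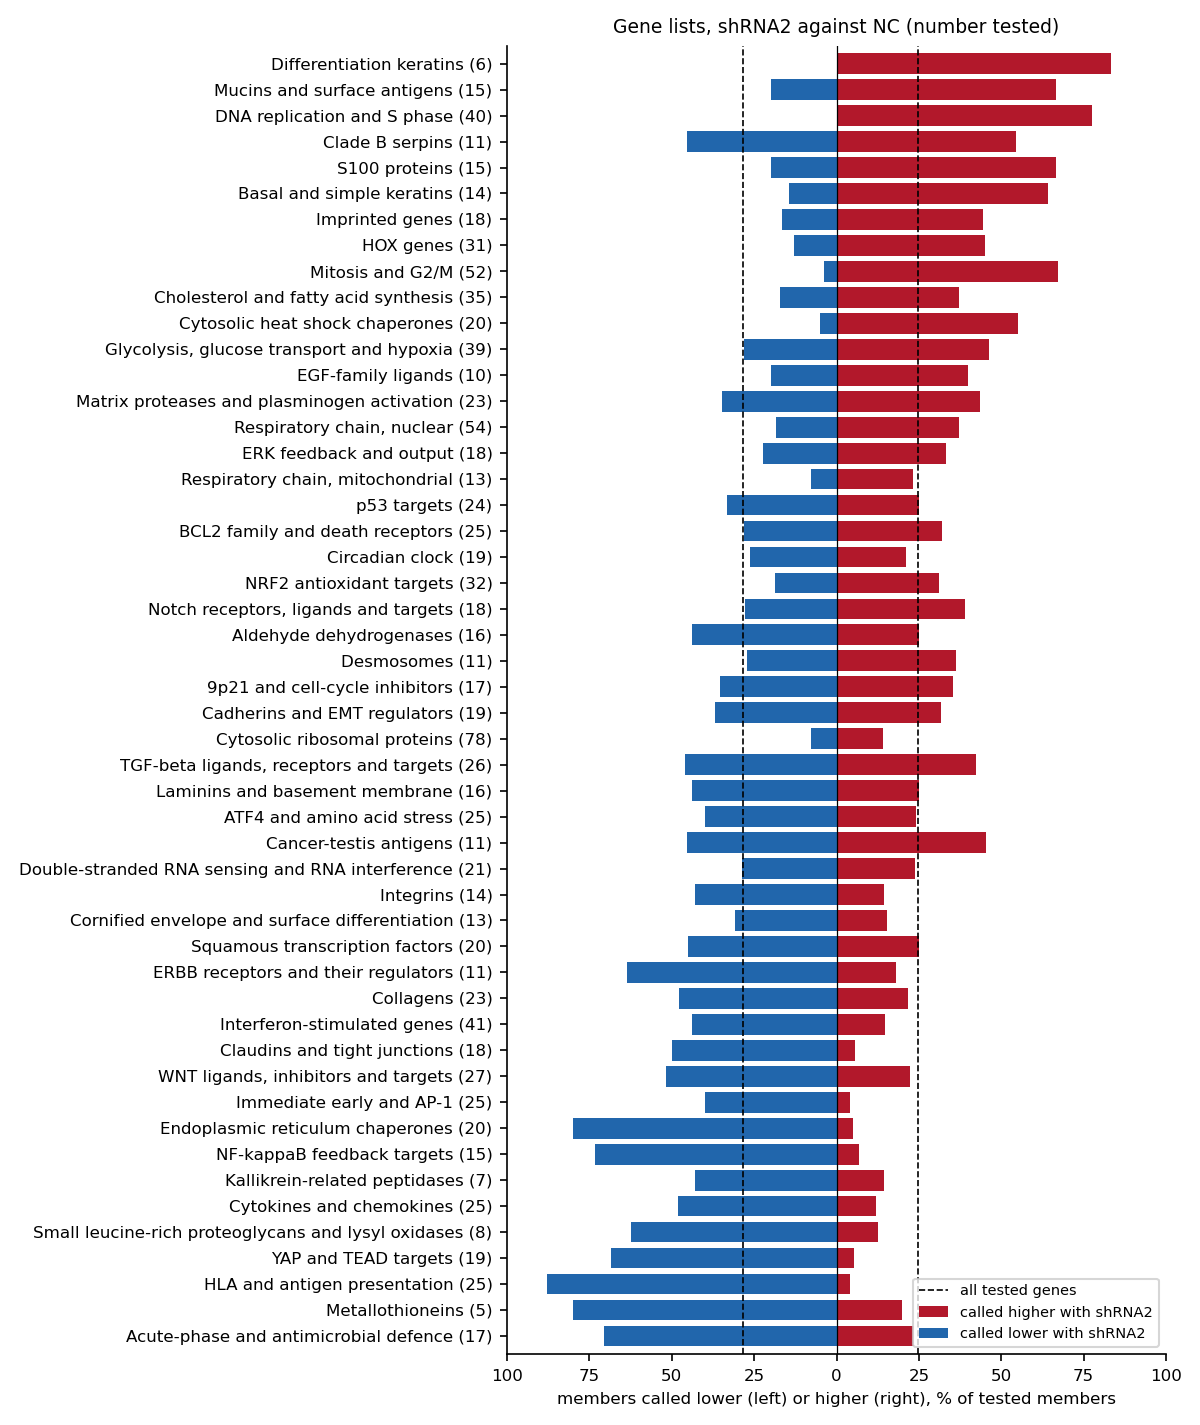
Share of the tested members of each gene list called higher (right) or lower (left) with shRNA2 than with NC, in percent, with dashed lines at the shares over all tested genes (24.6% and 28.4%). DNA replication has the highest share called higher among lists of over 20 members, 31 of 40, and HLA and antigen presentation the highest share called lower, 22 of 25.

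In the EGFR pathway, ERBB receptor genes were mostly called lower, while ligands and outputs of ERK moved in both directions. Of 11 tested ERBB receptors and regulators, 7 were called lower and 2 higher (0 or 1 higher without any 1 library), with a median log2 fold change of -0.50. ERBB3, the kinase-impaired partner of ERBB2, fell 14.6-fold, from 62.1, 46.5 and 53.7 CPM to 4.27, 3.78 and 3.05 CPM. Of 10 EGF-family ligands, 4 were called higher and 2 lower (median 0.42), and 2 were called higher without library 1 or 3 of shRNA2 or of NC. EREG (epiregulin) fell 57.8-fold, to at most 0.338 CPM, whereas NRG4, a ligand of ERBB4, rose 16.1-fold and EPGN (epigen) went from 0 counts in NC to 13.5 to 15.8 CPM, a rise of at least 94.6-fold.

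Of 18 feedback and output genes of ERK, 6 were called higher and 4 lower with shRNA2 (median 0.24). Against the same NC libraries, the counts were 11 and 2 (median 0.98) with shRNA1 and 13 and 5 (median 1.54) with shRNA3. Compared directly, 7 of the 18 were called lower with shRNA2 than with shRNA1 and 8 lower than with shRNA3, none was higher in either comparison, and against shRNA3 library 3 alone none was called. The 7 became 2 to 4 without any 1 shRNA2 library or shRNA1 library 1 or 2, and the 8 became 0 without any 1 shRNA2 library or shRNA3 library 1 or 2 and 13 without shRNA3 library 3. Over all tested genes, 12.3% were called between shRNA2 and shRNA1 (5.78% lower) and 8.34% between shRNA2 and shRNA3 (6.43% lower). Without the shRNA3 group, 7007 genes were called between shRNA2 and shRNA1 (3404 higher, 3603 lower), against 2158 with all libraries. Counts against shRNA1, here and in the lists below, thus move up as well as down with the libraries in the fit. The median of the 18 ERK genes against shRNA1 was -0.84 with all libraries and without shRNA3 libraries 1 and 2. DUSP6, the phosphatase that inactivates ERK, stood at 31.3, 56.9 and 52.6 CPM in NC and 64.9, 67.3 and 59.6 CPM with shRNA2 (adjusted p = 0.0756), below the 108 to 134 CPM of shRNA1 (log2 fold change -0.96, adjusted p = 0.0119) and the 121 to 135 CPM of shRNA3 (-1.01, adjusted p = 0.0269). Against shRNA3 library 3 alone the value for DUSP6 was -1.04 with adjusted p = 0.0603. SPRY4, a Sprouty inhibitor of receptor tyrosine kinases, rose 2.22-fold over NC, to 21.1 to 26.3 CPM, yet was lower than with shRNA1 (46.2 to 55 CPM, adjusted p = 0.016). FOSL1, the AP-1 subunit FRA1, was at 84.6 to 113 CPM in NC, 51.3 to 60.9 CPM with shRNA2 and 157 to 242 CPM with shRNA1 (adjusted p = 0.0245). AREG (amphiregulin) had 49 to 55.1 CPM with shRNA2, between the 31.1 to 33.7 CPM of NC and the 138 to 150 CPM of shRNA1 (log2 fold change against shRNA1 -1.45, adjusted p = 0.0385), and TGFA, another EGFR ligand, was also lower than with shRNA1 (-1.13, adjusted p = 0.00343).

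Other ERK outputs moved clearly against NC. ETV4, a PEA3-family factor, rose 3.08-fold and PHLDA1 3.4-fold, whereas EGR1, an immediate early zinc finger factor, fell 9.67-fold, from 74.6, 121 and 117 CPM to 10.1, 11.7 and 10.5 CPM. CCND1, the G1 cyclin D1, fell 2.12-fold, to 123 to 134 CPM. Among 25 immediate early and AP-1 genes 10 were called lower and 1 higher (median -0.78), and 6 were called lower without shRNA2 library 3.

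NF-kappaB is a family of dimeric factors held in the cytoplasm by inhibitors of the IkappaB type; its active dimers induce cytokines, adhesion molecules and its own inhibitors. Of 15 tested feedback targets, 11 were called lower and 1 higher with shRNA2 (median -1.10, against -0.76 with shRNA1 and -0.60 with shRNA3). Within 250 bases before the start site, in RefSeq promoters of GRCh38.p14, the NF-kappaB motif (GGG, any 2 bases, TTTCC) on either strand occurred in 5 of the 13 list members with a promoter entry, against 1.73% of 27305 promoters and 1.92% of those of tested genes. The matches stand in capitals, with 25 bases on each side, for 3 members called lower and for NFKB1, the member called higher.
TNFAIP3, chr6:137867167-137867238, plus strand: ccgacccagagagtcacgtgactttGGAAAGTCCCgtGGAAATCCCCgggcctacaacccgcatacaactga
NFKBIA, chr14:35404796-35404855, minus strand: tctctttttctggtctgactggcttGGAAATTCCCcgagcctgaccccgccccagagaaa
BIRC3, chr11:102317260-102317319, plus strand: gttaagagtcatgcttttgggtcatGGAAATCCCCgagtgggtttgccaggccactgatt
NFKB1, chr4:102501285-102501344, plus strand: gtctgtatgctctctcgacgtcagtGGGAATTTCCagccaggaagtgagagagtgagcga
TNFAIP3 has 2 matches, both on the opposite strand. A match describes the letters of the window and shows no binding. The list holds known targets, so a motif share above that of all promoters was likely beforehand and does not bear on shRNA2. The motif occurred in 4 of 10 members called lower and in 1 of 1 called higher.

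TNFAIP3, the ubiquitin editor A20 that ends NF-kappaB signalling, was at 116, 121 and 114 CPM in NC and 19.7, 20.6 and 19.3 CPM with shRNA2, 5.87-fold lower (adjusted p = 1.87e-05). The other hairpins left more of it, 56.1 to 80.1 CPM with shRNA1 and 25.1 to 61.2 CPM with shRNA3. The fall was deeper than with shRNA1 (log2 fold change -1.79, adjusted p = 0.00355) and than with shRNA3 (-1.22, adjusted p = 0.0314), but not past the threshold against shRNA3 library 3 alone (-0.35, adjusted p = 0.326). NFKBIA, the inhibitor IkappaB-alpha, fell 1.72-fold and BIRC3, an inhibitor of apoptosis that acts in TNF signalling, 4.1-fold. NFKB2 and RELB, the subunits of the non-canonical arm, fell 3.95-fold and 4.52-fold. NFKB2 was at 48 to 50 CPM with shRNA2, 75.5 to 87.5 CPM with shRNA1 and 76.6 to 104 CPM with shRNA3, and shRNA2 was lower than both (adjusted p = 0.00843 and 0.0174, and 0.0221 against shRNA3 library 3 alone). NFKB1, which encodes the p105 precursor of p50, rose 3.63-fold, from 22.4 to 25 CPM to 80.7 to 89.3 CPM.

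Many cytokine genes fell. Of 25 tested cytokines and chemokines 12 were called lower and 3 higher (median -1.44, against -0.91 with shRNA1 and 0.34 with shRNA3), and 9 were lower than with shRNA1 with 1 higher. The 9 became 3 to 4 without any 1 shRNA2 library or shRNA1 library 1 or 2. Against shRNA3 itself 9 were lower and none higher (median -1.48), but 2 were lower against its library 3 alone (median -0.22). Without any 1 shRNA2 library or shRNA3 library 2 none was called lower than shRNA3, 2 were without shRNA3 library 1, and 17 were without its library 3. TNF fell at least 128-fold, CCL2 at least 190-fold and CXCL8, a neutrophil chemokine, 22.8-fold, to 1.24 to 1.41 CPM. IL1A, an alarmin of keratinocytes, fell 3.54-fold, to 20.1 to 21 CPM.

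IL24 and CCL5 were lower with shRNA2 than with either other hairpin, also against shRNA3 library 3 alone. Against shRNA3 both calls were lost without any 1 shRNA2 library or shRNA3 library 2 (adjusted p = 0.056 to 0.125) and with only the groups compared (adjusted p = 0.206). IL24, an IL-10 family cytokine, was at 2.27, 2.27 and 2.13 CPM in NC and 1.23, 0.62 and 1.33 CPM with shRNA2, against 33.5, 35.7 and 21.5 CPM with shRNA1 and 98.6, 118 and 9.29 CPM with shRNA3. Its log2 fold change was -4.83 against shRNA1 (adjusted p = 0.00455), -6.14 against shRNA3 (0.0134) and -3.14 against shRNA3 library 3 alone (0.00249), and -1.06 against NC (0.26, and 0.00771 in the fit without shRNA3 libraries 1 and 2). The rise that both other hairpins gave was thus not seen with shRNA2. CCL5, a T cell chemokine, rose 18-fold over NC, to 7.79, 7.39 and 6.81 CPM, but reached 22.5 to 27.1 CPM with shRNA1 (adjusted p = 0.00237) and 23.8 to 40.2 CPM with shRNA3 (0.0092, and 0.00249 against library 3 alone).

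YAP and its partner TEAD activate genes in spread and proliferating cells and are restrained by the Hippo kinases. Of 19 tested targets and pathway genes, 13 were called lower and 1 higher with shRNA2 (median -1.77, against -1.32 with shRNA1 and -1.11 with shRNA3). Of the 19, 8 were lower than with shRNA1 (median -0.64) and 8 lower than with shRNA3, with none higher in either comparison. The median against shRNA3 was -0.00, with 10 values negative and 9 positive, and 0.01 against shRNA3 library 3 alone. As a list these genes were thus not shifted against shRNA3. The first 8 became 3 to 4 without any 1 shRNA2 library or shRNA1 library 1 or 2, and the second became 0 without any 1 shRNA2 library or shRNA3 library 1 or 2. The letters GGAATG of the TEAD site, on either strand, occurred in 6 of 14 members with a promoter entry, against 11.9% of all promoters and 9.52% of those of tested genes. As these members too were listed for known roles, that share does not bear on shRNA2, and 4 of the 10 called lower had the letters. CCN2 has 3 matches and ANKRD1 has 2, shown in capitals for 2 targets called lower.
CCN2, chr6:131951437-131951566, minus strand: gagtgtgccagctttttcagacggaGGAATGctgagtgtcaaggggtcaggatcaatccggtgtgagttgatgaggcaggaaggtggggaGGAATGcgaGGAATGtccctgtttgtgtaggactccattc
ANKRD1, chr10:90921185-90921332, minus strand: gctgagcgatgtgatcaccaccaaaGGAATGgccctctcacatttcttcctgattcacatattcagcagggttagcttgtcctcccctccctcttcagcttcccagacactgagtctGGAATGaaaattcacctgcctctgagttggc

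CCN2, the matricellular protein CTGF, was at 78.2, 74.9 and 62.4 CPM in NC and 0.995, 0.564 and 0.72 CPM with shRNA2, 93.9-fold lower (adjusted p = 3.88e-05). It was lower than with shRNA1 (3.18 to 5.67 CPM, log2 fold change -2.65, adjusted p = 0.0361), while shRNA3 library 3, at 0.745 CPM, lay within the shRNA2 range. CCN1, the matricellular protein CYR61, fell 34.8-fold, from 815 to 946 CPM to 22.9 to 28.9 CPM. With shRNA3, CCN1 was at 935 and 934 CPM in libraries 1 and 2 and at 33.7 CPM in library 3, so the call against shRNA3 (-4.63, adjusted p = 0.0266) rests on libraries 1 and 2 (-0.41, adjusted p = 0.322, against library 3 alone). AMOTL2, a scaffold that binds YAP, was at 33.7 to 37 CPM with shRNA2, 423 to 447 CPM in NC, 143 to 161 CPM with shRNA1 and 65.9 to 290 CPM with shRNA3, and was lower than shRNA3 library 3 alone as well (-0.92, adjusted p = 0.00352). F3, tissue factor, was at 71.8, 73.1 and 72.6 CPM with shRNA2, against 331 to 461 CPM in NC and 346 to 469 CPM with shRNA1, where no fall was seen (shRNA2 against shRNA1 -2.45, adjusted p = 0.000381). YAP1 itself was at 115 to 129 CPM with shRNA2 and 114 to 139 CPM in NC (log2 fold change -0.07, adjusted p = 0.809), and was lower than the 203 to 265 CPM of shRNA1 (adjusted p = 0.0207).

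**Figure D3:**
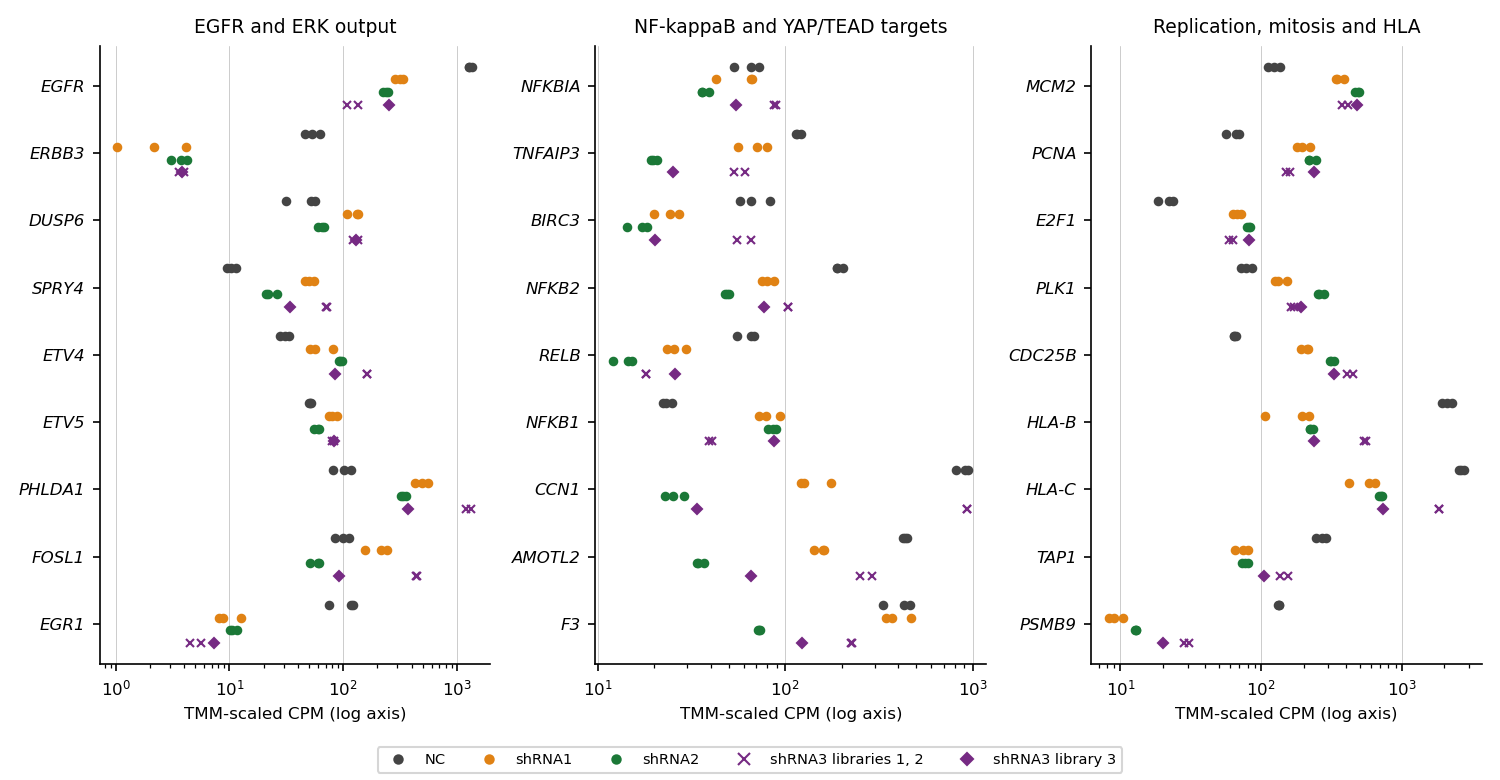
CPM on a log axis of growth factor signalling genes, NF-kappaB and YAP genes, and cell cycle and antigen presentation genes in all 12 libraries, 1 point per library; crosses mark shRNA3 libraries 1 and 2, and the diamond marks library 3. With shRNA2, EGFR lies at 225 to 250 CPM against 1271 to 1372 CPM in NC, and CCN1 at 22.9 to 28.9 CPM, near shRNA3 library 3 (33.7 CPM) and far from shRNA3 libraries 1 and 2 (935 and 934 CPM).

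HLA molecules present peptides to T cells; class I genes are expressed by most cells, and class II genes by antigen-presenting cells and by epithelium exposed to interferon gamma. Of 25 tested genes of the system, 22 were called lower and 1 higher (median -1.90, against -2.52 with shRNA1 and -1.02 with shRNA3). Compared directly with shRNA1, 1 was higher and 1 lower (median 0.06). Compared with shRNA3, 4 were lower and none higher (median -0.55), and the median against its library 3 alone was -0.06. Among class I genes, HLA-B fell 9.26-fold, HLA-C 3.73-fold and B2M, their shared light chain, 2.35-fold. TAP1, the peptide transporter, fell 3.49-fold and PSMB9, an immunoproteasome subunit, 10.3-fold. Class II fell further. CD74, the invariant chain, went from 713, 659 and 730 CPM to 0.351, 0.451 and 0.111 CPM, 2263-fold lower (adjusted p = 1.73e-08), HLA-DRA fell from 109 to 125 CPM to 0 counts, at least 665-fold, and CIITA, the class II transactivator, fell 12.3-fold. HLA genes are near-identical in part, so how the authors' counting split reads among them is uncertain.

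Interferon-stimulated genes were more often called lower than higher, with 18 of 41 called lower and 6 higher (median -0.59, and -0.57 without shRNA3 libraries 1 and 2). Of the 41 log2 fold changes, 28 were negative and 13 positive. GBP1, a guanylate-binding protein, fell 64.1-fold and MX1, an antiviral GTPase, 15-fold. OASL rose 3.61-fold. ISG15, a ubiquitin-like modifier, was at 98.5 to 112 CPM with shRNA2 and 131 to 165 CPM in NC (adjusted p = 0.148, and 0.0173 without shRNA3 libraries 1 and 2), and both other hairpins were above it, at 286 to 494 CPM (shRNA1, adjusted p = 0.00343) and 191 to 434 CPM (shRNA3, 0.0245, and 0.0684 against library 3 alone). Among 21 genes of double-stranded RNA sensing and RNA interference, 5 were called higher and 6 lower (3 lower without shRNA2 library 2 or NC library 3), and DROSHA, the nuclease that cuts hairpin precursors, rose 4.06-fold with values of 128 to 132 CPM.

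Proliferation genes rose. Of 40 tested genes of DNA replication, 31 were called higher and none lower (median 1.41, against 1.24 with shRNA1 and 1.14 with shRNA3). Compared directly, their median was 0.20 against shRNA1, 0.35 against shRNA3 and -0.04 against shRNA3 library 3 alone. Of 52 genes of mitosis 35 were called higher and 2 lower (median 0.79), with 1 lower without any 1 library. MCM2, a subunit of the replicative helicase, was at 123, 135 and 112 CPM in NC and 484, 467 and 499 CPM with shRNA2 (3.92-fold, adjusted p = 8.2e-07). POLA1, which starts DNA synthesis, rose 8.35-fold, RRM2, a subunit of ribonucleotide reductase, 4.94-fold, PCNA, the polymerase clamp, 3.56-fold and E2F1, the factor that induces S-phase genes, 3.81-fold. Mitotic genes moved alike: CCNA2 (cyclin A2) rose 5.81-fold, to 169 to 182 CPM, and CDC25B, a phosphatase that activates CDK1, 4.9-fold. Of 17 cell-cycle inhibitors and their partners 6 were called higher and 6 lower (median 0.08): CDK4, the kinase that cyclin D binds, rose 2.85-fold, CCND2 (cyclin D2) went from 31.1 to 47.1 CPM to 0 counts, at least 209-fold lower, and CDKN2A, the locus of p16, fell 3.23-fold.

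Both PLK1 and WEE1, regulators of mitotic entry, rose more with shRNA2 than with the other hairpins. PLK1, a mitotic kinase, was at 280, 252 and 256 CPM with shRNA2, 72.3 to 86.6 CPM in NC, 125 to 153 CPM with shRNA1 and 163 to 191 CPM with shRNA3 (shRNA2 against shRNA1 0.94, adjusted p = 0.00233, against shRNA3 0.59, adjusted p = 0.0314, and against its library 3 alone 0.45, adjusted p = 0.147). WEE1, the kinase that inhibits CDK1, was at 148, 159 and 145 CPM, against 27.7 to 31.9 CPM in NC, 64.2 to 85.6 CPM with shRNA1 and 75.2 to 99.5 CPM with shRNA3, and was higher than shRNA3 library 3 alone too (0.99, adjusted p = 0.0178).

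Keratin genes of both lists were mostly called higher. Of 14 basal and simple keratins 9 were called higher and 2 lower (median 1.18), and of 6 tested differentiation keratins 5 were higher and none lower (median 2.85), with 3 higher without shRNA2 library 1 or NC library 1, and 1 higher among genes with a mean of at least 50 counts. KRT13, the keratin of non-cornified mucosa such as the oral lining, went from 0.202, 0.197 and 0.0507 CPM in NC to 1504, 1421 and 1459 CPM with shRNA2. KRT13 was at 380 to 468 CPM with shRNA1 (shRNA2 higher by 1.79, adjusted p = 0.00301) and at 702 CPM in shRNA3 library 3 (higher by 1.04, adjusted p = 0.00791), while shRNA3 libraries 1 and 2 reached 1510 and 1324 CPM. KRT19, a keratin of simple and basal oral epithelium, rose 1131-fold, to 984, 918 and 960 CPM, and lay above the 247 to 323 CPM of shRNA1 (adjusted p = 0.000306) and the 478 to 587 CPM of shRNA3 (0.0269, and 0.0597 against library 3 alone). KRT5, the basal keratin, fell 12.6-fold, from 965 to 1049 CPM to 77.4 to 82.1 CPM, and this fall was smaller than with shRNA1 (16.5 to 29.1 CPM, adjusted p = 0.00192).

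Other epithelial groups held members that moved both ways. Among 20 squamous transcription factors 9 were called lower and 5 higher: EHF, an epithelial ETS factor, fell 29.6-fold, TP63, the master factor of basal keratinocytes, 1.98-fold, and KLF5 rose 4.09-fold. Of 18 claudins and tight junction genes 9 were lower and 1 higher (15 and 2 without shRNA3 libraries 1 and 2), and the adaptor CGN (cingulin) fell 10.9-fold and CLDN7 3.62-fold. Desmosomal DSP (desmoplakin) rose 3.39-fold, and PKP1 (plakophilin 1) fell 29.6-fold. Of 15 S100 genes 10 were higher and 3 lower, with S100A11 rising 4.72-fold and S100A8, the partner of S100A9, falling from 9.59 to 12.1 CPM to 0 counts, at least 60.9-fold. S100A9 was at 1.93, 1.75 and 1.27 CPM with shRNA2, below shRNA1 (2.99 to 6.07 CPM, adjusted p = 0.0131), shRNA3 (5.96 to 11.6 CPM, 0.0134) and shRNA3 library 3 alone (0.0298). Of 15 mucins and surface antigens 10 were higher and 3 lower, with MUC4 rising 37.5-fold and MUC1 2.45-fold.

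Secreted defence proteins were mostly lower than in NC, and 3 kallikrein-related peptidases were higher than with shRNA1. Of 17 acute-phase and antimicrobial genes 12 were called lower and 4 higher (median -3.65, against -4.35 with shRNA1 and -3.50 with shRNA3). Compared directly, 5 were lower and 1 higher than with shRNA1 (median -0.62), and 8 lower and none higher than with shRNA3 (median -1.21), with 2 lower and 1 higher against its library 3 alone (median -0.38). The 5 became 0 or 1 without any 1 shRNA2 library or shRNA1 library 1 or 2, and the 8 became 0 or 1 without any 1 shRNA2 library or shRNA3 library 1 or 2. C3, the central complement component, fell 12.6-fold, to 101 to 113 CPM, SAA1, serum amyloid A1, 139-fold, and WFDC2, the secreted antigen HE4, at least 1235-fold. Of 7 tested kallikrein-related peptidases 3 were called lower and 1 higher than in NC, and 3 were called higher than with shRNA1 and none lower (median 1.98). Against shRNA3 1 was higher and 1 lower (median -0.25), and against its library 3 alone 1 was higher and none lower. KLK5 kept 1.41, 1.01 and 1.33 CPM with shRNA2 and at most 0.103 CPM with shRNA1 and 0.445 CPM with shRNA3. KLK10 was at 6.71 to 7.85 CPM with shRNA2 and at 1.19 to 1.44 CPM with shRNA1 (higher by 2.46, adjusted p = 0.000479).

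Collagens were more often called lower than higher, and cadherins and regulators of the epithelial to mesenchymal transition moved in both directions, with 6 of 19 called higher and 7 lower (median 0.02). CDH1 (E-cadherin) fell 6.04-fold, from 336, 322 and 310 CPM to 53.2, 55.9 and 51.2 CPM (adjusted p = 1.46e-06), and CDH2 (N-cadherin) fell 8.36-fold, while ZEB1, a repressor of CDH1, rose 8.9-fold, to 3.88 to 4.74 CPM, and TWIST2 from 0 counts to 6.2 to 7.33 CPM. Of 23 collagen genes 11 were called lower and 5 higher (2 or 3 higher without any 1 library), with COL6A2 falling 15.3-fold and COL4A6 rising 8.54-fold. Of 14 integrins 6 were lower and 2 higher (6 and 6 without shRNA3 libraries 1 and 2, and 6 and 7 with only the groups compared), and ITGB6, part of the receptor that activates TGF-beta, fell to at most 0.225 CPM from 33.8 to 39.3 CPM. MMP14, a membrane collagenase, fell 538-fold, to 0.41 to 1.24 CPM, and TIMP3, a metalloproteinase inhibitor, rose 5.25-fold. Of the small leucine-rich proteoglycans and lysyl oxidases, the family of FMOD and its collagen-modifying neighbours, 5 of 8 tested were lower and 1 higher, with BGN (biglycan) falling 27.4-fold and LOXL4 22.1-fold. FN1 (fibronectin) was at 27.9, 33.5 and 29.6 CPM with shRNA2 and 142 to 174 CPM in NC, but at 159 to 361 CPM with shRNA1 (log2 fold change of shRNA2 against shRNA1 -2.95, adjusted p = 0.00173).

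Some TGF-beta and activin genes were also lower than with shRNA1. Of 26 tested genes of the pathway 12 were called lower and 11 higher than NC, and 7 were lower and 2 higher than with shRNA1, with 4 lower without any 1 shRNA2 library or shRNA1 library 2. INHBA, the activin A subunit, was at 38.8, 33.4 and 38.4 CPM in NC and 1.11, 0.62 and 1.72 CPM with shRNA2, against 25.3 to 28 CPM with shRNA1 (log2 fold change -4.50, adjusted p = 0.00489). Its shRNA3 values were 0.593, 0.947 and 6.7 CPM, so library 1 lay below every shRNA2 library, library 2 within their range and library 3 above it. PMEPA1, a feedback inhibitor induced by TGF-beta, was at 10.3 to 11.9 CPM with shRNA2 and 31.8 to 63.7 CPM with shRNA1 (adjusted p = 0.00228), after 63.6 to 74.7 CPM in NC. ID1, a target of BMP signalling, rose 11.8-fold over NC, to 615 to 690 CPM.

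Developmental, imprinted and cancer-testis genes moved in both directions. Of 27 WNT genes 14 were called lower (9 without shRNA2 library 3) and 6 higher: WNT5A, a non-canonical ligand, fell from 7.42 to 9.39 CPM to 0 counts, DKK3 fell 528-fold, and FZD10, a receptor, rose from 0 counts to 20.6 to 23.1 CPM. Of 31 HOX genes 14 were higher and 4 lower, with HOXA11 rising 15.5-fold and HOXD1 falling from 2.17 to 3.04 CPM to 0 counts. Of 18 imprinted genes 8 were higher and 3 lower, IGF2 among them at 7.59 to 8.66 CPM after at most 0.304 CPM in NC. Of 11 tested cancer-testis antigens 5 were higher and 5 lower, with MAGEA3 falling 127-fold.

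Chaperone genes split by compartment. Of 20 endoplasmic reticulum chaperones and their regulators 16 were called lower and 1 higher (median -0.87), while of 20 cytosolic heat shock chaperones 11 were higher and 1 lower (median 0.53), with 7 higher without any 1 library. HSPA5, the chaperone BiP, was at 1687, 1390 and 1450 CPM in NC and 516, 504 and 511 CPM with shRNA2, 2.96-fold lower (adjusted p = 0.0247, but 0.0644 without NC library 1 and 0.0666 to 0.0722 without any 1 shRNA2 library). In shRNA3 HSPA5 was at 3765 and 3786 CPM in libraries 1 and 2 and at 510 CPM in library 3. The calls against NC of HSPA5, and of MANF named below, held with only the groups compared and without the shRNA3 group. CALR (calreticulin) fell 2.52-fold, and HSP90AA1, the inducible cytosolic HSP90, rose 3.8-fold, to 1855 to 1892 CPM. DDIT3, the stress factor CHOP, was at 57.5, 52.1 and 43.7 CPM in NC and 11.4, 10.3 and 11.8 CPM with shRNA2, 4.58-fold lower, and lay below shRNA1 (17.7 to 35.3 CPM, adjusted p = 0.00778), shRNA3 (38.9 to 56.3 CPM, 0.0134) and shRNA3 library 3 alone (0.0166). MANF, a secreted protein induced by unfolded protein, fell 1.33-fold against NC, a call lost without shRNA2 library 2 or 3 or NC library 2 or 3 (adjusted p = 0.0524 to 0.092), and was lower than both hairpins (27.6 to 31.5 CPM, against 59.5 to 74.3 and 53.7 to 56.3 CPM, adjusted p = 0.000512 and 0.0155, and 0.0109 against shRNA3 library 3 alone). Of the 5 tested metallothioneins 4 were lower and 1 higher than in NC (none higher without any 1 NC library), with MT2A falling 4.93-fold and MT1X 8.99-fold; the NC libraries themselves ranged from 2580 to 4294 CPM for MT2A.

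Genes of glycolysis, lipid synthesis and the respiratory chain were more often called higher than lower. Of 39 genes of glycolysis, glucose transport and hypoxia 18 were called higher and 11 lower, with SLC2A3, the glucose transporter GLUT3, rising from at most 0.202 CPM to 74.6 to 106 CPM, and LDHB rising 3.49-fold. Of 35 genes of cholesterol and fatty acid synthesis 13 were higher and 6 lower, with SREBF1, their main activator in lipogenesis, rising 9.16-fold, to 370 to 418 CPM, FASN 3.72-fold and SCD 6.01-fold. TM7SF2, a sterol reductase, fell 23.6-fold. Of 54 nuclear respiratory chain genes 20 were higher and 10 lower, of which 3 and 5 were at least 2-fold. Of 16 aldehyde dehydrogenases 4 were higher and 7 lower (8 and 7 without shRNA3 libraries 1 and 2). ALDH3A1, an aldehyde dehydrogenase of surface epithelia, was at 62.1, 58.8 and 55.3 CPM with shRNA2, 2.33 to 3.5 CPM in NC and 11.7 to 16.7 CPM with shRNA1, 2.10 higher in log2 than shRNA1 (adjusted p = 0.000229). The 78 cytosolic ribosomal protein genes moved little, with 11 higher, 6 lower (3 without shRNA2 library 3) and a median of -0.04, and 24 higher and 24 lower without shRNA3 libraries 1 and 2.

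The direct comparisons with the other hairpins called fewer genes. Between shRNA2 and shRNA1, 1144 genes were higher (6.53%) and 1014 lower (5.78%), with a median size of 0.42 in log2. Between shRNA2 and shRNA3, 334 were higher (1.91%) and 1128 lower (6.43%), and against shRNA3 library 3 alone 109 (0.571%) and 135 (0.707%) of 19093 tested genes, 1.28% in all. That fit without shRNA3 libraries 1 and 2 called 68.1% of genes against NC (32.1% higher, 36% lower) and 36.8% against shRNA1 (17.8% higher, 19.1% lower). Against the mean of both, 1028 genes (5.86%) were called, 492 higher (2.81%) and 536 lower (3.06%). Genes higher with shRNA2 than with both hairpins, each past the threshold, with no overlap of libraries and at least 10 CPM, numbered 73 (0.416%), of which 47 were also higher than NC, 4 lower and 22 not called. Genes lower than both numbered 158 (0.901%), of which 92 were also lower than NC, 21 higher and 45 not called. These 2 counts fell to 0 and 0 when any shRNA2 library was left out, and to 0 and 0 without shRNA3 library 2, whereas without shRNA3 library 3 they were 561 and 568. Without shRNA3 libraries 1 and 2 they were 78 and 92, and 18 and 24 genes met the rule both ways. Of the named genes, 55 were called against shRNA1, and 30 kept that call whichever library of either group was left out, among them IL24, TNFAIP3, F3, KRT13, KRT19, PLK1 and WEE1, while DUSP6, SPRY4, FOSL1, AREG, NFKB2, CCN2 and YAP1 were among the 25 that did not. None of the 56 named genes called against shRNA3 kept the call in every such fit.

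Among those 18, METTL7A, a lipid droplet methyltransferase-like protein, showed the largest smaller difference in the fit of all libraries. METTL7A was at 12.1, 12.1 and 14.2 CPM with shRNA2, 1.01 to 1.13 CPM in NC, 1.09 to 1.7 CPM with shRNA1 and 3.5 to 3.93 CPM with shRNA3 (log2 fold change 3.26 against shRNA1, adjusted p = 0.000174, 1.78 against shRNA3, 0.0134, and 1.77 against its library 3, 0.0174). So the gene rose 11.9-fold over NC with shRNA2 and lay at 1.09, 1.21 and 1.7 CPM with shRNA1. GNG4, a G protein gamma subunit, was at 9.25 to 11.6 CPM with shRNA2 and 7.83 to 8.93 CPM in NC, above the 3.29 to 4.49 CPM of shRNA1 (adjusted p = 0.00315) and the 2.48 to 2.82 CPM of shRNA3 (0.0092, and 0.0107 against library 3 alone): the fall seen with the other hairpins was not seen with this one. PC, the mitochondrial pyruvate carboxylase, was at 116, 113 and 115 CPM with shRNA2, while NC (61.9 to 67.9 CPM), shRNA1 (47.3 to 53.4 CPM) and shRNA3 (52.3 to 62.7 CPM) lay below it. NAGLU, a lysosomal enzyme of heparan sulfate breakdown, was at 70.6 to 72.6 CPM, against 30.1 to 38.5 CPM in NC, 17 to 24.2 CPM with shRNA1 and 35.4 to 45.8 CPM with shRNA3. CSPG4, the surface proteoglycan NG2, rose 4.63-fold over NC and was above both hairpins (adjusted p = 0.000278 and 0.0249, and 0.0343 against shRNA3 library 3 alone).

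Among the 24 lower genes were IL24, CCL5, AMOTL2, NFKB2, DDIT3 and MANF, described above. PLK2, a stress-induced polo-like kinase, was at 218, 227 and 255 CPM in NC and 21.5, 20.1 and 25.1 CPM with shRNA2, against 91.2 to 99.9 CPM with shRNA1 and 138, 118 and 35.3 CPM with shRNA3. Against shRNA3 library 3 alone its log2 fold change was -0.68 (adjusted p = 0.044). GOLT1B, a Golgi transport protein, was at 21.4 to 27.6 CPM with shRNA2, against 61.9 to 75.2 CPM in NC, 60.3 to 88.3 CPM with shRNA1 and 57.3 to 87.5 CPM with shRNA3, so only shRNA2 of the 3 hairpins lay below NC in every library. MED10, a Mediator subunit, was at 60.5 to 62.4 CPM with shRNA2, and the 81.5 to 87.3 CPM of NC, the 155 to 182 CPM of shRNA1 and the 90 to 102 CPM of shRNA3 were all above it. The replication-dependent histone genes H2BC5, H2BC4 and H1-2 stood near the top of the lower genes in the fit of all libraries but are not among the 24. H2BC5 was at 1.55 to 3.63 CPM with shRNA2 and 2.61 to 2.69 CPM in NC, and at 29.8, 22 and 4.7 CPM with shRNA1. H1-2 was at 12.8 to 16.9 CPM with shRNA2, 13 to 14.7 CPM in NC and 114, 96.5 and 28.3 CPM with shRNA1, so the third shRNA1 library lay nearer to shRNA2 in both.

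**Figure D4:**
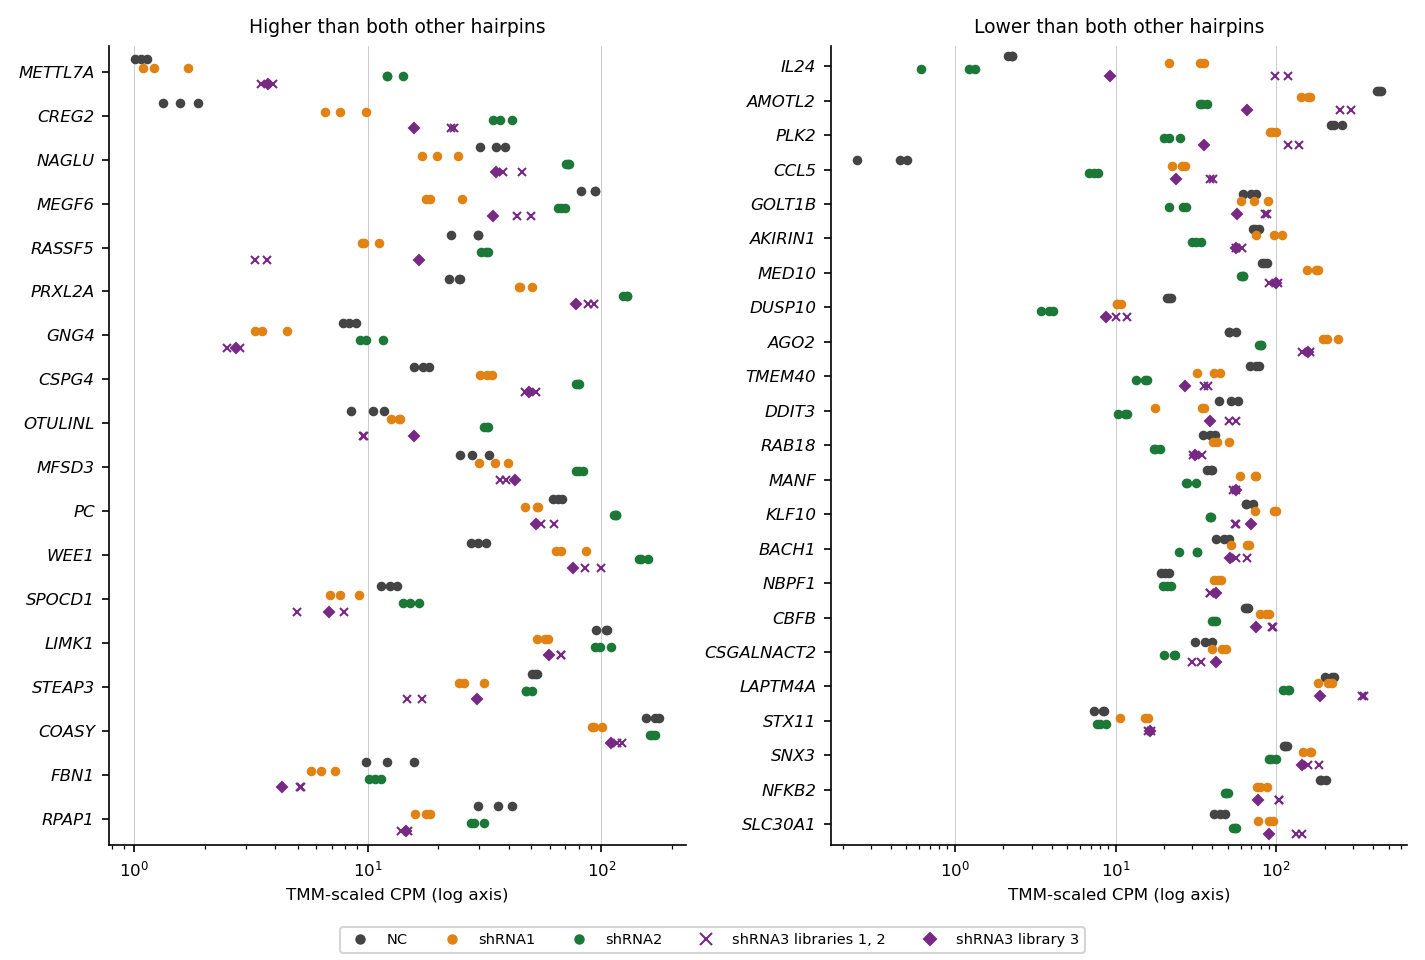
CPM on a log axis of the 18 genes higher and 23 of the 24 genes lower with shRNA2 than with both other hairpins, with and without shRNA3 libraries 1 and 2, in all 12 libraries. METTL7A is at 12.1 to 14.2 CPM with shRNA2 and at most 3.93 CPM in every other library, and IL24 is at most 1.33 CPM with shRNA2 and at least 9.29 CPM in every shRNA1 and shRNA3 library.

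Gene types differed in how often they were called higher. Of 14049 tested protein-coding genes 26.7% were higher and 28% lower (median 0.01), of 2149 long non-coding genes 15.1% and 28.8% (median -0.40), and of 677 pseudogenes 17.3% and 30.6% (median -0.39). The level moved with this: protein-coding genes with a mean under 1 CPM were 12% higher and 49.7% lower, those of 10 CPM or more 30.8% and 21.7%, and 200 long non-coding genes of 10 CPM or more 24% and 24%. By chromosome, the 572 tested genes of chromosome 4 had the highest share called higher, 43.7% with 18.5% lower, and the 878 of chromosome 7, which carries EGFR, the lowest, 15.5% with 35.3% lower. The cause of these shares was not tested.

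**Figure D5:**
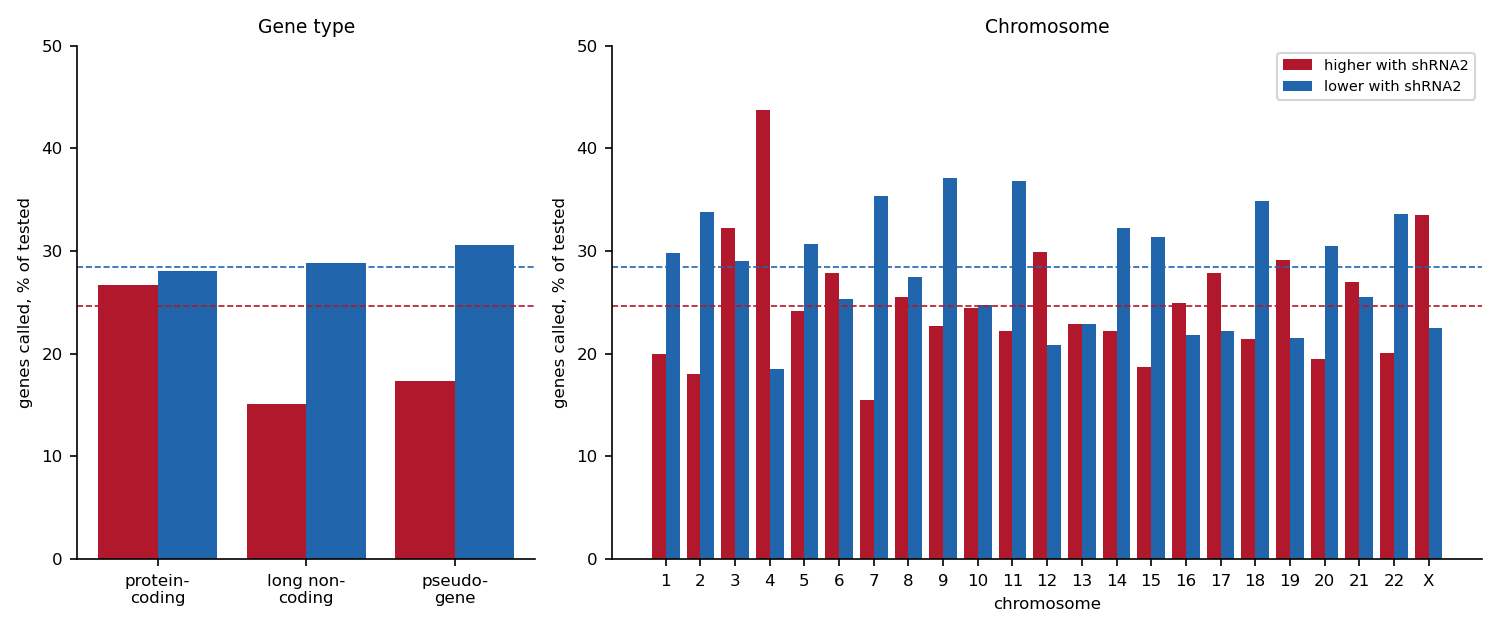
Share of tested genes called higher and lower with shRNA2 than with NC, in percent, by gene type and by chromosome. Long non-coding genes have 15.1% called higher against 26.7% of protein-coding genes, and chromosome 4 has 43.7% called higher against 15.5% on chromosome 7.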

How the data were processed

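The authors deposited 1 table with an estimated count (expected count) per gene for each of the 12 libraries, not scaled to a common total, in which 13.8% of values are not whole. The submitters' processing notes name HISAT2, HTSeq 0.11.2 and GRCh38, with no role or order. Per the labels' protocols the library kit was NEBNext Ultra RNA. Whether counting was by strand is not given in the sources used here.

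Counts were rounded, scaled by TMM (factors 0.771 to 1.11) and filtered with filterByExpr (minimum count 10, minimum total 15), which left 17532 of 61044 IDs. Tests used edgeR's quasi-likelihood F test (edgeR 4.0.16, R 4.3.3, robust) in 1 model of the 4 groups over all 12 libraries (8 residual degrees of freedom, common coefficient of biological variation 0.289), two-sided, with Benjamini-Hochberg adjustment over all tested genes. The model was also run on simulated counts with an equal dispersion for all genes, few changed genes and no outlying libraries. These data differ in all of these, so that run does not show how the model performs here. CPM values are TMM-scaled, except the levels and limits of FMOD, which use unscaled totals. The log2 differences of FMOD and their p-value use TMM-scaled CPM. A fold against a group with at most 3 counts in every library is computed against that floor and written as "at least". Floors and exact limits cover counting error only.

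Named genes are the largest changes with no overlap of libraries and at least 10 CPM in the higher and 1 in the other group, the most abundant called genes with at most 3 counts in the other group, the largest differences from both other hairpins, and, for each of 50 lists, the largest changes and the members beyond both other hairpins. Genes named outside this rule (among them NFKBIA, MCM2 and HSPA5, for their known roles) were chosen after their values were seen. A few genes that the rule names are not reported here. The comparison and the lists were chosen with earlier results of these data known. Positions and gene types come from GENCODE 29, which matched 97.2% of tested genes, and promoters from RefSeq.

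Alternatives were DESeq2 size factors, DESeq2 1.42.0, other filters and thresholds, a replicate block, only the groups compared, and leaving out libraries.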

Additional observations from a re-analysis of the deposited data

How the results depend on the processing

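The count of genes called against NC stayed within 1.5 times of 9290 under every alternative run (6730 to 13250, and 7960 to 8174 without 1 replicate). Of the 142 tested genes named in the text, none changed direction there where called in the fit of all libraries or in the alternative. Changes of direction in genes called in neither were not counted, and 137 of the 142 were tested at a mean of at least 50 counts. The counts against the other hairpins depended on the processing far more, and the causes were not tested. Against shRNA1 (2158 genes) the count was 530 at an adjusted p of 0.01, 1031 with a 2-fold minimum, 1420 with no filter, 3464 with DESeq2, 6251 with only the groups compared, 7031 without shRNA3 libraries 1 and 2, 7007 without the shRNA3 group, and 559 to 2795 without 1 replicate. Against shRNA3 (1462 genes) it was 4, 974, 911, 3793, 0 and 244 under the same settings up to the fit without shRNA3 libraries 1 and 2. Without 1 replicate it ranged from 0 (without any 1 shRNA2 replicate or shRNA3 replicate 2) to 10800 (without shRNA3 replicate 3). Where edgeR called 0, 3186 to 4248 genes had an unadjusted p under 0.05. Against the mean of both (1028 genes) the counts were 107, 466, 638, 2528, 173 and 4025, and 57 to 8327 without 1 replicate. Of the 244 genes called against shRNA3 library 3 alone, 96 were also called against all of shRNA3 in the same direction and 2 in the opposite one.

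Some values against shRNA3 reversed without its libraries 1 and 2: CCN2 went to 0.01, CDKN2A to 0.38, TP63 to -0.59 and C3 to 1.28. Against the mean of both hairpins, MSLN went to 0.42 without shRNA3 libraries 1 and 2, and EPGN ranged from -0.20 to 0.45 (without shRNA3 replicate 3). FMOD stayed at -0.17 to -0.14 without 1 replicate, and at -1.11 with a pseudocount of 0.1.

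Equal replicate numbers did not pair the libraries: the deviations of same-numbered libraries correlated at -0.0663 to 0.052 over 18 pairs of libraries. With the replicate number as a block, 8949 genes were called against NC, 1498 against shRNA1, 378 against shRNA3 and 583 against the mean of both. With fewer than 4 libraries per group, precision is limited, and low counts such as those of FMOD cannot show a fold change.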
